A study of Mus musculus with 10 samples.

Results

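Adipogenic transcription factors are the regulators that turn a precursor cell into a fat cell and then keep it one. The 10 described here are Pparg, Cebpa, Cebpb, Cebpd, Rxra, Klf15, Klf4, Zfp423, Ebf1 and Gata2. They were taken by gene symbol from the deposited expression table, which lists 31285 genes, and all 10 were found. RNA was sequenced from inguinal white adipose tissue, the subcutaneous fat of the groin, of mice aged 20 months. One group of 5 libraries is labelled Flox. The second group of 5 is labelled GHR Knockdown and holds the Ad-GHRKO mice of the protocols, whose growth hormone receptor gene, Ghr, is deleted in adipose tissue according to the series title. The sources used here do not give the promoter behind the deletion, the strain or the sex. Mice of both groups had free access to chow and water. The labels do not say that each library came from its own animal, so p-values measure the spread between these libraries.

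PPARγ, the product of Pparg, is a nuclear receptor that pairs with RXRα, the product of Rxra, and switches on the genes of lipid storage. C/EBPβ and C/EBPδ appear early in differentiation and help to induce PPARγ and C/EBPα, which then sustain each other in the mature adipocyte. Klf4 is an early activator of Cebpb, Klf15 acts later on the adipocyte program, Zfp423 and Ebf1 mark commitment to the lineage, and Gata2 is known as a brake on the step from preadipocyte to adipocyte.

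Promoter sequence was available for 9 of the 10 genes, with 15 start sites in all (RefSeq, GRCm38). The 250 bases before the start are shown for Cebpa, the most abundant of the 10, and for the 3 genes with the smallest p-values below, Klf4, Klf15 and Pparg. Of the 3 listed starts of Pparg, the one shown lies farthest downstream. PPARγ2, the form found mainly in fat, is made from a start downstream of that of PPARγ1, and the table gives 1 value for the whole gene, so the 2 forms are not separated in what follows. Capitals mark matches, on either strand, to the motifs searched. These were the C/EBP site spelled TTGCNNAA, the CCAAT box by its own letters, the GC box of SP1 and of many KLF proteins spelled GGGCGG, the related KLF motif spelled CCACCC and the E box spelled CACGTG.
Pparg (GRCm38, chr6:115421816-115422065, plus strand): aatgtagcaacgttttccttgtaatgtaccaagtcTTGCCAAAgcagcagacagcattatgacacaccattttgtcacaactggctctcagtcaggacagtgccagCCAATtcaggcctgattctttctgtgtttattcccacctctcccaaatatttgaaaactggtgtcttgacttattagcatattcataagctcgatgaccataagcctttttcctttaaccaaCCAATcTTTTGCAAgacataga
Cebpa (GRCm38, chr7:35119043-35119292, plus strand): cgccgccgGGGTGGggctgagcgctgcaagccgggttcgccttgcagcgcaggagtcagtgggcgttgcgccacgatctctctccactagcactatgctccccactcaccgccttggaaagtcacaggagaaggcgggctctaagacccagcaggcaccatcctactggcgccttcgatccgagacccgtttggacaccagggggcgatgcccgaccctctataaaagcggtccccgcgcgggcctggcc
Klf15 (GRCm38, chr6:90462326-90462575, plus strand): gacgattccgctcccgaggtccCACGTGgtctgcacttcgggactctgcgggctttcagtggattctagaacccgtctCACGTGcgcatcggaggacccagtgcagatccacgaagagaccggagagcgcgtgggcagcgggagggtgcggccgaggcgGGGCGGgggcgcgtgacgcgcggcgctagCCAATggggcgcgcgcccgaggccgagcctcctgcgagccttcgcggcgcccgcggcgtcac
Klf4 (GRCm38, chr4:55532476-55532725, minus strand): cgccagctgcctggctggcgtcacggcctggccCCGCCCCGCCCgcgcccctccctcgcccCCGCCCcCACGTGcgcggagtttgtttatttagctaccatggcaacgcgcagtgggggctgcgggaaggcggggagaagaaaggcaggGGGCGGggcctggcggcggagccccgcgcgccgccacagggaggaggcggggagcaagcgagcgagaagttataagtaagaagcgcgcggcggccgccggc
The Pparg window has 2 C/EBP matches, the nearer one ending 9 bases before the start, and 2 CCAAT boxes, and its GC content is 40.8%. That of the Klf4, Klf15 and Cebpa windows is 74.0%, 72.0% and 66.4%. In Klf4, 2 of the GC boxes share a base. A C/EBP match was present in 9.56% of all 32851 windows of this length, a CCAAT box in 33.8%, a GC box in 32.7%, the related KLF motif in 28.1% and an E box in 6.02%. Among the 10 genes Zfp423 was the other with a C/EBP match. The element TTCNNNGAA, bound by STAT5, the factor activated by the growth hormone receptor, was in none of the 15 windows and in 7.02% of all windows. The consensus DR1 repeat of PPARγ with RXRα, the cyclic AMP element TGACGTCA and the palindromic EBF motif were also in none of the 15. Over all windows they were in 0.0335%, 1.55% and 0.779%. A match is a string of letters and not a measured binding site.

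Values are in FPKM, fragments per kilobase of exon scaled to the fragments assigned in the library, so levels can be compared between genes. All reads assigned in a library enter the scaling, those of muscle genes included. The recovered depth was 14.6 M to 19.3 M assigned reads per library, and the 10 genes had 200 to 23971 reads each. Ghr, the targeted gene, was at 93.5 ± 21.9 and 16.6 ± 2.71 FPKM (SD, n = 5 each) in Flox and Ad-GHRKO, with no overlap. Skeletal muscle markers, 26 genes, made up 21.5% of the FPKM sum in Ad-GHRKO 1, where it was highest. The share was 12.2% in Flox 5, 7.87% in Flox 3 and 0.314% in Ad-GHRKO 5. The remaining 6 libraries had 0.0108% to 0.0367%. In bulk tissue fewer cells of a type and less RNA per cell cannot be told apart. The tissue label was met by its markers: the 8 adipocyte markers summed to 5396 to 8699 FPKM in Flox and to 2699 to 7335 FPKM in Ad-GHRKO, with the lowest value in Ad-GHRKO 1.

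No adipogenic transcription factor passed the test between genotypes. With limma over 12785 genes, 0 of the 10 had an adjusted p under 0.05, where 2.19% of all genes tested did (0.774% higher and 1.42% lower in Ad-GHRKO, or 99 and 181 genes). Rescaling to equal library sums turned that split to 139 higher and 91 lower, and 0 of the 10 passed there too. Limma voom on the recovered reads also called 0 of the 10. At an unadjusted p under 0.05 there were 3, Klf4, Klf15 and Pparg, where 16.4% of all genes were under it. The groups overlapped for all 10, where for 4.97% of all genes the genotypes were fully apart (1.62% with Ad-GHRKO above, 3.35% with it below). The median log2 change of the 10 was -0.09 (6 negative, 4 positive) beside 0.04 for all genes tested. All 10 passed the filter on low values.

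**Figure D1:**
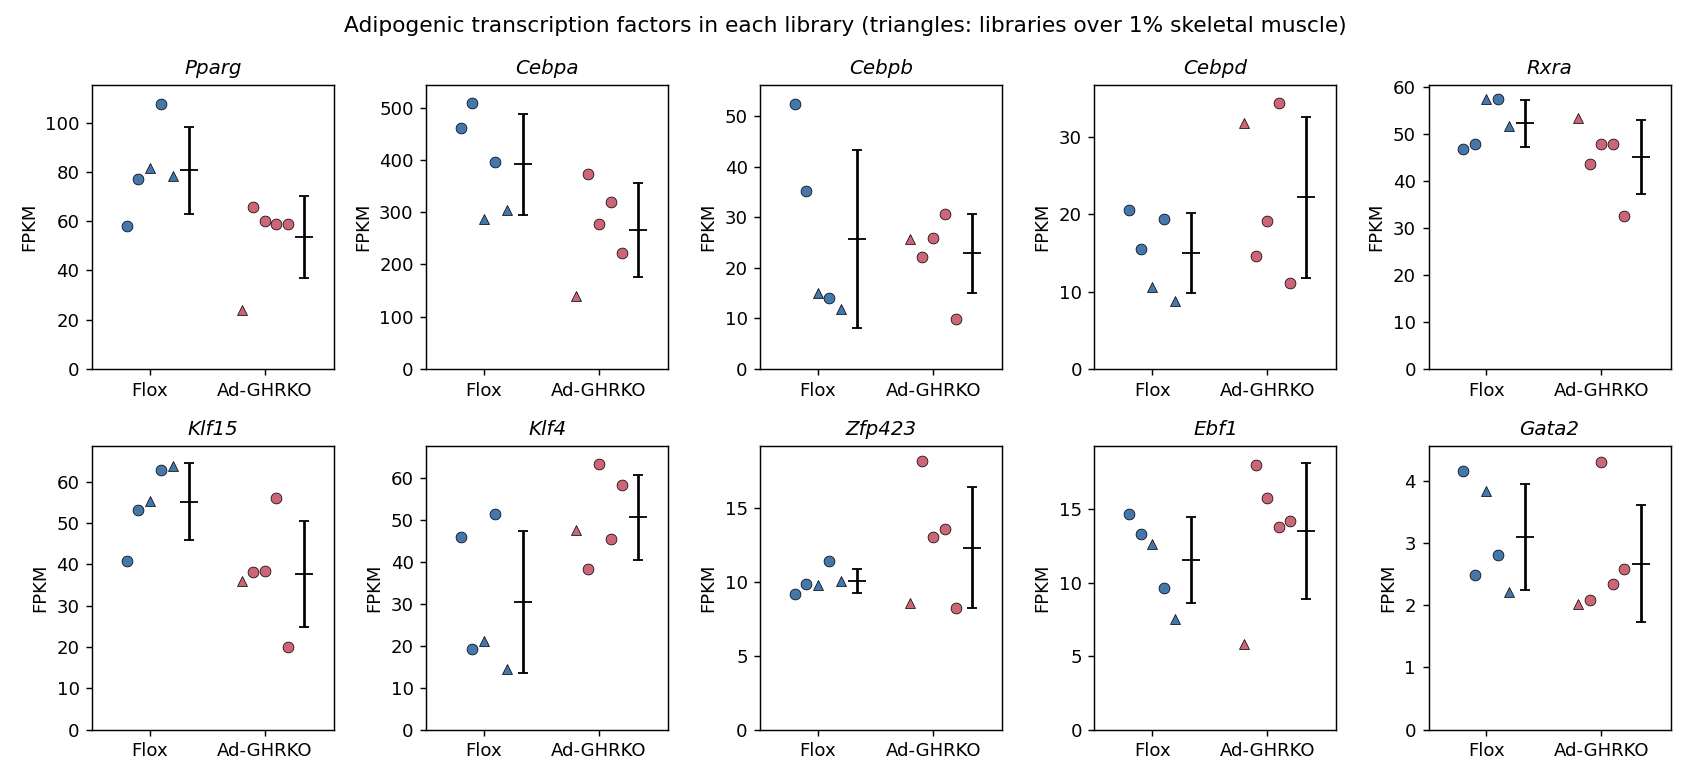
FPKM of each of the 10 transcription factors (y axis, from 0) in the 5 Flox and 5 Ad-GHRKO libraries, with the mean and SD beside the points and triangles for the 3 libraries with over 1% skeletal muscle markers. The groups overlap in every panel, and the lowest point for Pparg, Cebpa, Ebf1 and Gata2 is Ad-GHRKO 1.

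Of the factors of the mature adipocyte, Pparg and Cebpa had lower means in Ad-GHRKO without passing the test. Pparg (ENSMUSG00000000440, chromosome 6, 115360951 to 115490399, plus strand) was at 58.2, 77.2, 81.7, 108 and 78.3 FPKM in Flox 1 to 5 and at 24.1, 65.8, 60.1, 59.03 and 58.7 FPKM in Ad-GHRKO 1 to 5. Ad-GHRKO 2 to 5 lay close together, all above the lowest Flox library and below the other 4, and Ad-GHRKO 1 was far below them. The means were 80.6 ± 17.7 FPKM for Flox against 53.5 ± 16.7 FPKM for Ad-GHRKO (SD, n = 5 per group), with log2 change -0.63, 95% interval -1.22 to -0.05, limma adjusted p = 0.269. Without Ad-GHRKO 1, the library with the most muscle transcripts, the log2 change of Pparg was -0.37 (limma adjusted p = 0.161). The 95% intervals here and below are for 1 gene at a time and are not widened for the number of genes.

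Cebpa (ENSMUSG00000034957, chromosome 7, 35119293 to 35121928, plus strand), a gene of 1 exon that encodes C/EBPα, was at 462, 509.5, 287, 397 and 304 FPKM in Flox 1 to 5 and at 139.6, 373, 277, 319.8 and 223 FPKM in Ad-GHRKO 1 to 5. It was the highest of the 10 in every library. Ad-GHRKO 1, 3 and 5 lay below all Flox libraries, and Ad-GHRKO 2 and 4 within their range. The means were 392 ± 96.8 FPKM for Flox against 266 ± 89.7 FPKM for Ad-GHRKO (SD, n = 5 per group), with log2 change -0.60, 95% interval -1.20 to 0.01, limma adjusted p = 0.316. Cebpa passed as lower with the skeletal muscle score, the mean of the 7 muscle markers past the filter, as a covariate (log2 change -0.65, limma adjusted p = 0.0311). It did not pass when the 3 muscle-rich libraries were left out (-0.63, adjusted p = 0.0996). Over all 26 alternatives its adjusted p ran from 0.0311 to 0.547. Without Ad-GHRKO 1 alone the log2 change was -0.38 (adjusted p = 0.283). The antisense gene Gm45091, at 9.61 FPKM on average, shares 51 bases of exon with Cebpa, and whether reads were counted by strand is not stated.

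Set against the adipocyte markers of the same library, Cebpa was lower in every Ad-GHRKO library. Per 1000 FPKM of the 8 summed markers, Cebpa stood at 57.96, 58.6, 53.2, 60.1 and 54.1 in Flox 1 to 5 and at 51.7, 50.8, 42.9, 44.7 and 40.2 in Ad-GHRKO 1 to 5. These ranges do not overlap, and on this scale the same held, in the lower direction, for 0.735% of the genes tested and, in the higher direction, for 6.73%. Pparg overlapped, at 7.30 to 16.3 in Flox and 8.26 to 10.6 in Ad-GHRKO, and Cebpa was the 1 of the 10 that did not. Of the 8 markers, 7 had a negative log2 change (median -0.26), and 1, Adrb3, was called lower, beside 1.42% of all genes tested. This scale was chosen after the values were seen. In the limma fit on it the median log2 change of all genes was 0.27, that of Cebpa was -0.31, and Cebpa did not pass (adjusted p = 0.304).

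**Figure D2:**
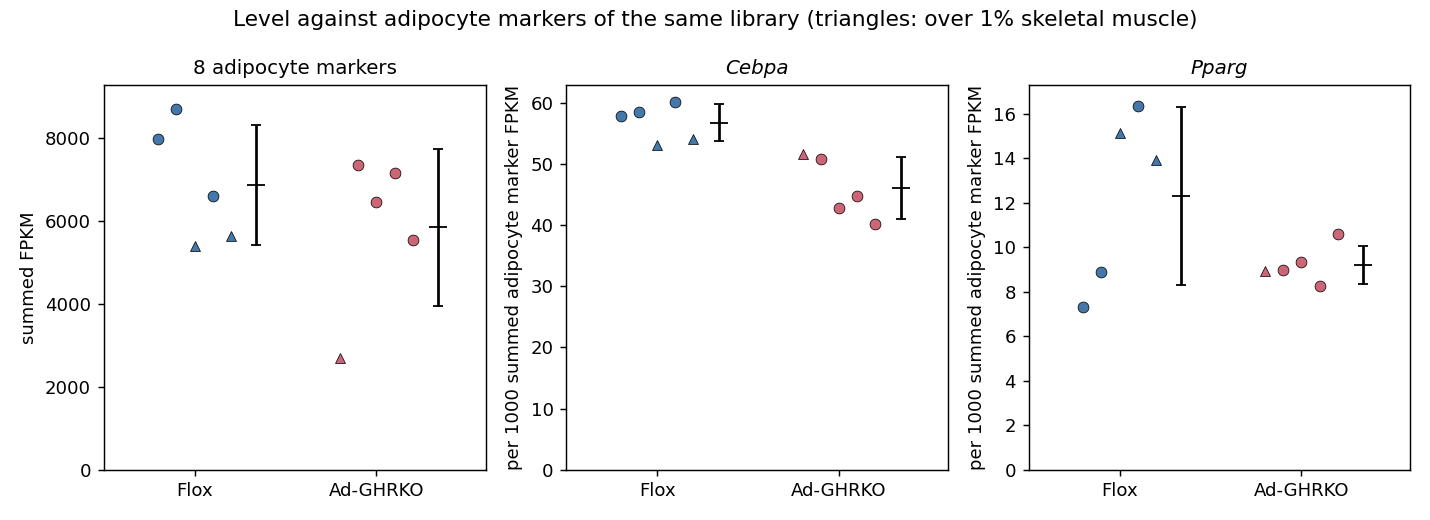
Summed FPKM of the 8 adipocyte markers (left), and Cebpa and Pparg per 1000 FPKM of that sum (middle and right), by library, with mean and SD beside the points and triangles for the libraries with over 1% skeletal muscle markers. Cebpa runs from 53.2 to 60.1 in Flox and from 40.2 to 51.7 in Ad-GHRKO, while the Pparg ranges overlap.

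Rxra (ENSMUSG00000015846, chromosome 2, 27676440 to 27762957, plus strand), the partner of PPARγ, was at 46.8, 47.8, 57.4, 57.3 and 51.6 FPKM in Flox 1 to 5 and at 53.3, 43.5, 47.9, 47.8 and 32.6 FPKM in Ad-GHRKO 1 to 5. Ad-GHRKO 2 and 5 lay below the Flox range and the other 3 within it. The means were 52.2 ± 5.03 FPKM for Flox against 45.03 ± 7.78 FPKM for Ad-GHRKO (SD, n = 5 per group), with log2 change -0.22, 95% interval -0.55 to 0.10, limma adjusted p = 0.510. Klf15 (ENSMUSG00000030087, chromosome 6, 90462576 to 90475238, plus strand), a zinc finger factor also known for its response to glucocorticoids, was at 40.7, 53.1, 55.2, 62.8 and 63.9 FPKM in Flox 1 to 5 and at 35.9, 38.1, 38.4, 56.1 and 19.95 FPKM in Ad-GHRKO 1 to 5. Ad-GHRKO 1, 2, 3 and 5 lay below all Flox libraries and Ad-GHRKO 4 within their range. The means of Klf15 were 55.2 ± 9.30 FPKM for Flox against 37.7 ± 12.8 FPKM for Ad-GHRKO (SD, n = 5 per group), with log2 change -0.59, 95% interval -1.11 to -0.07, limma adjusted p = 0.244. The log2 change was -0.51 without the 3 muscle-rich libraries (adjusted p = 0.347). It was -0.39 without Ad-GHRKO 5, the library with the lowest Klf15, and -0.24 with all 4 left out (adjusted p = 0.529).

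The early factors had no common direction. Cebpb (ENSMUSG00000056501, chromosome 2, 167688915 to 167690418, plus strand), of 1 exon, was at 52.4, 35.1, 15.1, 14.05 and 11.8 FPKM in Flox 1 to 5 and at 25.8, 22.2, 25.9, 30.6 and 9.96 FPKM in Ad-GHRKO 1 to 5. Flox 1 and Flox 2 were the highest of all and the other 3 Flox libraries among the lowest, and the Flox SD was 68.6% of the mean. The means were 25.7 ± 17.6 FPKM for Flox against 22.9 ± 7.81 FPKM for Ad-GHRKO (SD, n = 5 per group), with log2 change -0.01, 95% interval -0.92 to 0.91, limma adjusted p = 0.995, and its sign turned with TPM rescaling, array weights, voom and other settings. Cebpd (ENSMUSG00000071637, chromosome 16, 15887286 to 15891031, plus strand), also of 1 exon, was at 20.5, 15.5, 10.6, 19.3 and 8.80 FPKM in Flox 1 to 5 and at 31.8, 14.6, 19.1, 34.3 and 11.1 FPKM in Ad-GHRKO 1 to 5. Ad-GHRKO 1 and 4 stood above all Flox libraries and the other 3 within the Flox range. The means of Cebpd were 14.9 ± 5.18 FPKM for Flox against 22.2 ± 10.4 FPKM for Ad-GHRKO (SD, n = 5 per group), with log2 change 0.48, 95% interval -0.23 to 1.20, limma adjusted p = 0.516. Without the 3 muscle-rich libraries its log2 change was -0.01, and that of Cebpb was -0.51 (limma adjusted p = 0.536 for Cebpb). Cebpb shares 312 bases of exon with Tmem189 and Cebpd 562 with Spidr, both on the other strand, so their values can include reads of those genes. Over all libraries Tmem189 was at 15.5 FPKM on average and Spidr at 1.52 FPKM.

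Klf4 (ENSMUSG00000003032, chromosome 4, 55527143 to 55532466, minus strand), which encodes a zinc finger factor of early adipogenesis and also of endothelial and myeloid cells, was at 45.8, 19.1, 21.1, 51.3 and 14.3 FPKM in Flox 1 to 5 and at 47.6, 38.2, 63.2, 45.4 and 58.3 FPKM in Ad-GHRKO 1 to 5. Flox 1 and 4 lay among the Ad-GHRKO libraries, and Flox 2, 3 and 5 below all of them. The means were 30.3 ± 16.9 FPKM for Flox against 50.5 ± 10.1 FPKM for Ad-GHRKO (SD, n = 5 per group), with log2 change 0.87, 95% interval 0.15 to 1.58, limma adjusted p = 0.214. Klf4 had the smallest p of the 10 (rank 1321 of 12785 genes). Its log2 change was 0.48 without the 3 muscle-rich libraries (adjusted p = 0.398). The 10 macrophage markers summed to 411 to 1186 FPKM in Flox and 569 to 1125 in Ad-GHRKO, and the 10 endothelial markers to 145 to 361 and 184 to 398, with 0 of 10 called in either list. All 10 macrophage markers had a positive log2 change (median 0.33), as did 55.7% of all genes tested, and the 2 Flox libraries with high Klf4, Flox 1 and 4, had the 2 highest macrophage sums of Flox. Their part in the level of Klf4 was not tested.

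The commitment factors and Gata2 were the lowest of the 10. Zfp423 (ENSMUSG00000045333, chromosome 8, 87661810 to 87959595, minus strand) was at 9.21, 9.88, 9.80, 11.4 and 10.1 FPKM in Flox 1 to 5 and at 8.57, 18.1, 13.04, 13.5 and 8.26 FPKM in Ad-GHRKO 1 to 5. The Flox libraries were close together, while Ad-GHRKO 2, 3 and 4 lay above all of them and Ad-GHRKO 1 and 5, the 2 of this genotype with over 0.1% muscle markers, below all. The means were 10.1 ± 0.815 FPKM for Flox against 12.3 ± 4.08 FPKM for Ad-GHRKO (SD, n = 5 per group), with log2 change 0.21, 95% interval -0.21 to 0.64, limma adjusted p = 0.645. Its log2 change was 0.31 without the 3 muscle-rich libraries (adjusted p = 0.417) and 0.07 without Ad-GHRKO 2, the highest. Leaving out Ad-GHRKO 1 or Ad-GHRKO 5 gave 0.32 or 0.33, and it was 0.50 without the 4 libraries over 0.1% muscle markers (adjusted p = 0.0993).

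Ebf1 (ENSMUSG00000057098, chromosome 11, 44617317 to 45008091, plus strand), needed for adipocytes and for B cells alike, was at 14.7, 13.3, 12.6, 9.61 and 7.49 FPKM in Flox 1 to 5 and at 5.81, 18.02, 15.7, 13.8 and 14.2 FPKM in Ad-GHRKO 1 to 5. The lowest value was in Ad-GHRKO 1 and the 2 highest in Ad-GHRKO 2 and 3. The means were 11.5 ± 2.93 FPKM for Flox against 13.5 ± 4.61 FPKM for Ad-GHRKO (SD, n = 5 per group), with log2 change 0.16, 95% interval -0.43 to 0.76, limma adjusted p = 0.820. The log2 change of Ebf1 was 0.42 without Ad-GHRKO 1 (adjusted p = 0.164) and 0.25 without Flox 1. It was 0.03 when Flox 5 was left out, and leaving out Ad-GHRKO 2 or Ad-GHRKO 3 gave 0.05 or 0.09. The 10 B cell markers summed to 48.7 FPKM in Flox 1 and to 3.20 to 20.01 FPKM elsewhere. Within Flox the 5 libraries stood in the same order by B cell sum and by Ebf1, and in Ad-GHRKO the library with the lowest sum, Ad-GHRKO 2, had the highest Ebf1. With the mean of the 4 B cell markers past the filter as covariate, the log2 change of Ebf1 was 0.28 (limma adjusted p = 0.658). The part of B cells in the level of Ebf1 was not tested. Gata2 (ENSMUSG00000015053, chromosome 6, 88193891 to 88207032, plus strand) was at 4.15, 2.48, 3.84, 2.80 and 2.21 FPKM in Flox 1 to 5 and at 2.02, 2.09, 4.30, 2.35 and 2.57 FPKM in Ad-GHRKO 1 to 5. The ranges were nearly the same, 2.21 to 4.15 FPKM in Flox and 2.02 to 4.30 FPKM in Ad-GHRKO. The means were 3.10 ± 0.852 FPKM for Flox against 2.67 ± 0.938 FPKM for Ad-GHRKO (SD, n = 5 per group), with log2 change -0.17, 95% interval -0.58 to 0.25, limma adjusted p = 0.723. Gata2 is also a gene of mast cells and endothelium, and the 8 mast cell markers summed to 67.97 to 288 FPKM in Flox and 55.3 to 145 in Ad-GHRKO.

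**Figure D3:**
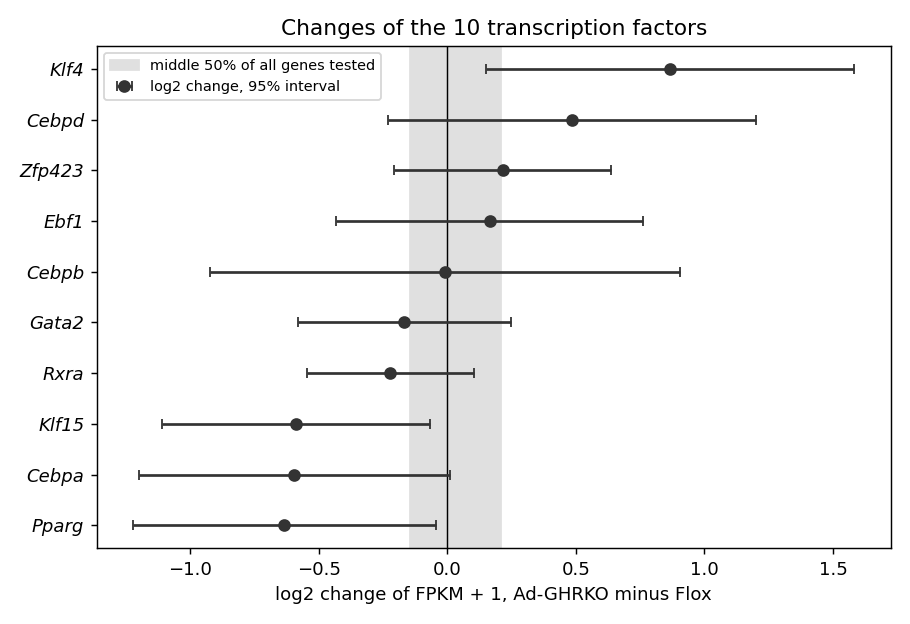
Log2 change of FPKM + 1 between Ad-GHRKO and Flox for each of the 10 genes (x axis, points) with its 95% interval from limma (bars), beside the middle 50% of all 12785 genes tested (grey band). Pparg, Klf15 and Klf4 have intervals that leave out 0, and none of the 10 has an adjusted p under 0.05.

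By level per kilobase the order was Cebpa, Pparg, Klf15, Rxra, Klf4, Cebpb, Cebpd, Ebf1, Zfp423 and Gata2 in Flox. In Ad-GHRKO it was Cebpa, Pparg, Klf4, Rxra, Klf15, Cebpb, Cebpd, Ebf1, Zfp423 and Gata2. In both genotypes 2 steps were wider than the ranges of the 5 libraries, that from Cebpa to Pparg and that from Zfp423 to Gata2. All other neighbours overlapped. Klf4 and Klf15, on either side of Rxra, hold each other's place in the 2 orders, which are those of the means. In Flox, Klf15 was above Rxra in 3 libraries and Rxra above Klf4 in 5. In Ad-GHRKO, Klf4 was above Rxra in 2 libraries and Rxra above Klf15 in 4. The mean of Cebpa over the 10 libraries was above 99.2% of the genes tested, that of Pparg above 94.5% and that of Gata2 above 25.3%.

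Of the 10, 5 were the highest of their families in both genotypes, and 0 of the 27 family genes tested passed the threshold by limma (8 at an unadjusted p under 0.05), beside 2.19% and 16.4% of all genes tested. Cebpa stood above the other 4 C/EBP genes measured, of which Cebpg, a partner without an activation domain, was at 17.5 ± 3.44 and 16.2 ± 3.98 FPKM in Flox and Ad-GHRKO (SD, n = 5 each). Pparg stood above Ppard, at 7.02 ± 0.533 and 6.02 ± 1.30 FPKM, and Ppara, at 1.54 ± 0.271 and 1.08 ± 0.222 FPKM. Rxra stood above Rxrg, at 22.2 ± 7.66 and 15.6 ± 10.1 FPKM, and Rxrb, at 17.95 ± 2.39 and 15.3 ± 2.16 FPKM. Ebf1 stood above Ebf3 and Ebf2, a marker of brown and beige precursors, at 3.91 ± 1.22 and 2.41 ± 0.948 FPKM. Of 17 KLF genes measured, Klf2, a brake on adipogenesis and an endothelial gene, was at 45.1 ± 23.3 and 77.7 ± 21.1 FPKM. By mean it came after Klf15 and before Klf4 in Flox, and in Ad-GHRKO it was the highest, with Klf6 and Klf4 next. Klf5, a known activator of Pparg, was at 0.327 ± 0.174 and 0.289 ± 0.179 FPKM, below the filter.

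Among known target genes of PPARγ and C/EBPα in adipocytes, 7 of 29 tested were called lower, none higher and 22 did not pass (24.1% called, beside 2.19% of all genes). At an unadjusted p under 0.05 there were 15 of the 29, beside 16.4% of all genes. Of the 29 log2 changes 19 were negative and 10 positive, and their median was -0.59. The 7 were Acaca, Acss2, Adrb3, Agpat2, Cfd, Fasn and Hsd11b1, of which Acaca, Acss2 and Fasn are enzymes of fatty acid synthesis. Adrb3, the beta-3 adrenergic receptor, fell with a log2 change of -2.40 (SE 0.27, limma adjusted p = 0.00169). Cfd kept a log2 change of -2.97 with no filter on low values, but not its call (adjusted p = 0.144). Acaca was at -1.91 without the 4 libraries over 0.1% muscle markers (adjusted p = 0.0533), against -2.52 in all. Agpat2 was at -1.70 with no filter and with the replicate block, as in the main test, and at -1.29 without the 4 libraries, and its call ended in each (adjusted p = 0.0572, 0.0518 and 0.0600). Fabp4, a fatty acid binding protein and a standard PPARγ target, was at 2134 ± 570.1 FPKM for Flox against 2101 ± 724 FPKM for Ad-GHRKO (SD, n = 5 per group), with adjusted p = 0.934. Cidec, a lipid droplet protein and also a target, was at 1758 ± 472 FPKM for Flox against 1971 ± 744 FPKM for Ad-GHRKO (SD, n = 5 per group), with adjusted p = 0.922. This list and those below were chosen with earlier results of these data known, so their shares are descriptions. Whether the target list differs from the 10 factors was not tested.

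Of 28 other regulators that promote adipogenesis, 2 fell and 26 did not pass (7.14% called lower, beside 1.42% of all genes), with a median log2 change of -0.09. At an unadjusted p under 0.05 there were 11 of the 28, beside 16.4% of all genes. Zfp467, a zinc finger factor that favours the adipocyte over the osteoblast fate, was at 10.8, 11.7, 14.6, 13.6 and 13.2 FPKM in Flox 1 to 5 and at 6.46, 7.72, 7.98, 5.11 and 6.13 FPKM in Ad-GHRKO 1 to 5. All Ad-GHRKO libraries lay below all Flox libraries, as for 3.35% of all genes tested. The log2 change of Zfp467 was -0.85 (SE 0.14, limma adjusted p = 0.0110). With the replicate block the log2 change was the same and the adjusted p was 0.0642. The call also ended without the 4 libraries over 0.1% muscle markers (log2 change -0.73, adjusted p = 0.0638) and on the scale of the adipocyte markers (-0.58, adjusted p = 0.266). Srebf1, a factor of lipid synthesis, had a log2 change of -1.38 (SE 0.16, adjusted p = 0.00207), and its call ended on the scale of the adipocyte markers (log2 change -1.09, adjusted p = 0.0601).

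Regulators that restrain adipogenesis held 0 of 17 past the threshold (1 at an unadjusted p under 0.05, median log2 change 0.15), by limma. Over all genes tested the shares were 2.19% past the threshold and 16.4% at an unadjusted p under 0.05. The smallest p-values were those of Klf2 (log2 change 0.88, adjusted p = 0.209) and Tcf7l2, a mediator of Wnt signals (-0.40, adjusted p = 0.313). Of 21 coregulators of PPARγ and RXRα, 0 passed by limma (1 at an unadjusted p under 0.05, median 0.04), beside the same 2.19% and 16.4% of all genes. Ppargc1b, a coactivator tied to mitochondrial genes, was at 1.95 ± 0.768 FPKM for Flox against 0.814 ± 0.228 FPKM for Ad-GHRKO (SD, n = 5 per group), with adjusted p = 0.0629, and passed as lower with voom and 5 other alternatives (voom adjusted p = 0.0474). Hdac3, a deacetylase of the corepressor complex, was at 21.2 ± 1.91 FPKM for Flox against 18.02 ± 0.695 FPKM for Ad-GHRKO (SD, n = 5 per group), with adjusted p = 0.330. Of 14 markers of adipocyte progenitors 0 passed by limma (1 at an unadjusted p under 0.05, median 0.16), beside 2.19% and 16.4% of all genes. They summed to 431 to 1155 FPKM in Flox and 483 to 784 in Ad-GHRKO.

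**Figure D4:**
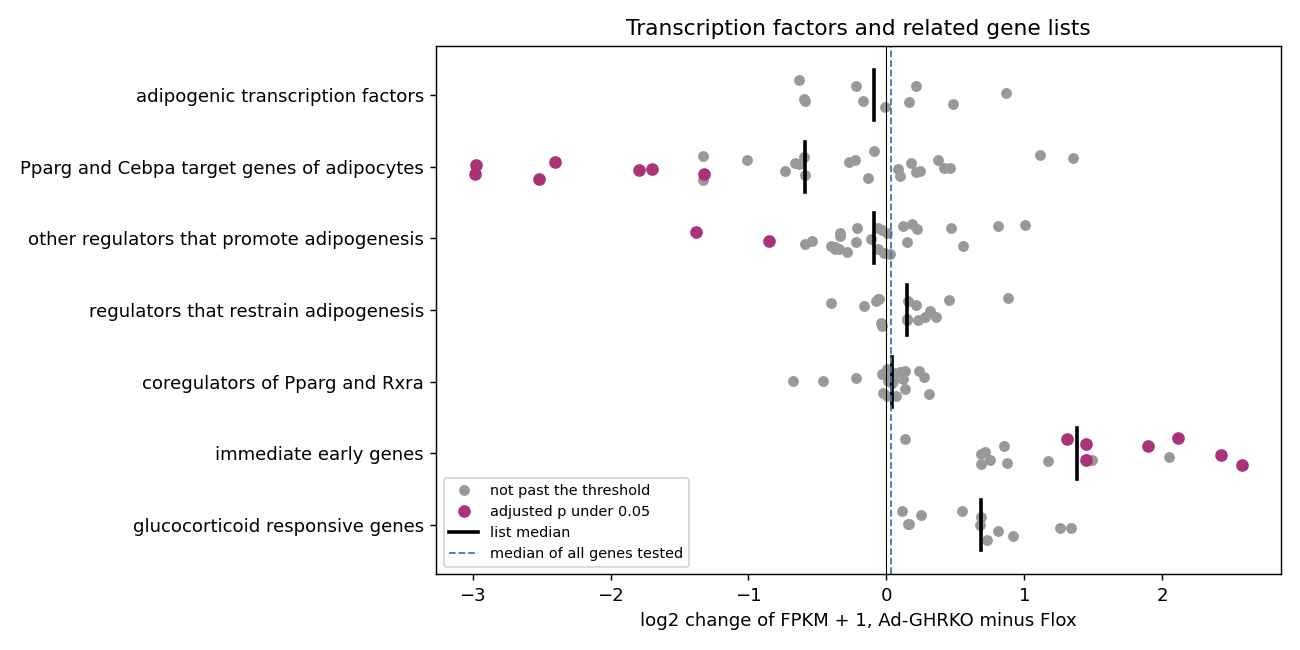
Log2 change of FPKM + 1 between Ad-GHRKO and Flox (x axis) of each tested gene in the 10 transcription factors and 6 related lists, with called genes in colour, a black bar at each list's median and a dashed line at the median of all genes tested. The factors lie on both sides of the dashed line, from -0.63 to 0.87, with none called. The target genes spread to the lower side, and the immediate early genes lie on the higher side.

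Cebpb, Cebpd and Klf4 are also among the genes that many cells induce rapidly when stimulated, and Cebpd and Klf15 respond to glucocorticoids. Immediate early genes rose in 7 of 18 cases with none lower (38.9% called higher, beside 0.774% of all genes), with a median log2 change of 1.38. All 18 log2 changes were positive, as were 55.7% of those of all genes. This list, too, was chosen with earlier results of these data known. Fos had a log2 change of 2.58 (SE 0.36, limma adjusted p = 0.00436). The calls of Junb and Dusp1 ended without the 3 muscle-rich libraries, at log2 changes of 1.69 and 1.27 (adjusted p = 0.0543 for both), against 2.11 and 1.45 in all libraries, and that of Junb ended also with no filter on low values (adjusted p = 0.0514). The list summed to 146 to 254 FPKM in Flox and 334 to 962 in Ad-GHRKO. Of 12 glucocorticoid responsive genes 0 passed by limma (6 at an unadjusted p under 0.05, beside 16.4% of all genes), all 12 log2 changes were positive, and the median was 0.68. Klf15, at a log2 change of -0.59, is not among the 12, and Cebpb, at -0.01, is not among the 18. Mt1, a metallothionein, was at 135 ± 43.3 FPKM for Flox against 331 ± 146 FPKM for Ad-GHRKO (SD, n = 5 per group), higher in every Ad-GHRKO library, with adjusted p = 0.0579, and passed as higher in 9 alternatives, TPM rescaling among them (adjusted p = 0.0400). The 12 genes summed to 362 to 584 FPKM in Flox and 672 to 1284 in Ad-GHRKO, and the 2 libraries with the highest sums, Ad-GHRKO 4 and 1, were also the 2 with the highest Cebpd. Ad-GHRKO 5, with the highest sum of immediate early genes, had the lowest Cebpb of all and the second highest Klf4. Their part in the levels of Cebpb, Cebpd, Klf4 and Klf15 was not tested.

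Across the 10 libraries, with each genotype's mean taken off, the factors varied together only in part. The Pearson r of log2(FPKM + 1) was 0.81 for Cebpa with Ebf1, 0.76 for Rxra with Klf15, 0.69 for Cebpb with Cebpd and 0.59 for Pparg with Cebpa. That of Pparg with its partner Rxra was -0.24. These are descriptions of 10 libraries that also share differences in muscle and other content. Among 9896 named genes of at least 2 FPKM on average, those most like Pparg in this measure were Ttc30b and Ankib1 (r = 0.98 and 0.97). Those most like Cebpa were Anxa6 and Ptms (r = 0.99 and 0.99), and those most like Cebpb were Arrdc3 and Mycl (r = 0.93 and 0.92). Those most like Cebpd were Cyp2f2 and H2afv (r = 0.90 and 0.89), and those most like Rxra were Keap1 and Ppard (r = 0.92 and 0.92), the latter a PPAR gene. Klf15 was followed most closely by Lpin1 and Hspa2 (r = 0.93 and 0.92), and Klf4 by Lmnb1 and Nbl1 (r = 0.96 and 0.96). Zfp423 was followed by Ret and Trim14 (r = 0.98 and 0.95), Ebf1 by Mapkbp1 and Tmeff1 (r = 0.98 and 0.98) and Gata2 by Id1 and Cxcl12 (r = 0.97 and 0.96). These are the 2 highest r of the genes ranked for each factor and are given with no test. With the genotype means left in, r of the same pairs ran from -0.04 (Cebpd with Cyp2f2) to 0.98 (Zfp423 with Ret). It was 0.24 for Cebpa with Anxa6 and 0.96 for Cebpa with Ptms.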

How the data were processed

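The authors deposited 1 table of FPKM values. Its 10 value columns carry the sample titles, which tied each to 1 library, and the genotype label gave the group. Per the labels' protocols, poly(A) RNA was selected, fragmented and copied from random primers, with the second strand marked. The aligner is not given in the sources used here, and neither are the counter or its use of strand. The submitters' processing notes name GRCm39, but of 31253 gene identifiers shared with GENCODE M21, 31109 (99.54%) have its GRCm38 positions, so coordinates are GRCm38.

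FPKM times exon length gave whole reads (tolerance 0.01) for 99.43% to 99.49% of values, hence the depths, and voom on these reads called 100 genes higher and 171 lower. The main test was that of limma 3.58.1 (R 4.3.3), two-sided, with trended variance, on FPKM plus a pseudocount of 1 in log2. It covered the 12785 genes that reached 1 FPKM in 5 or more libraries, with Benjamini-Hochberg adjustment and a threshold of 0.05. This scale understates changes of low genes. No 2 libraries were identical. The fit was checked on simulated counts that held no differences in muscle or other tissue content between libraries. The spread between libraries beyond read sampling was set alike for all genes. That check does not cover such differences in content, or genes that vary more, such as Cebpb (Flox SD 68.6% of the mean). Alternatives were pseudocounts, filters, scalings, covariates, weights, the replicate number and libraries left out. Each covariate score was the mean log2 value of the list's markers past the filter. These were 7 of 26 for skeletal muscle, 10 of 10 for endothelium and 4 of 10 for B cells.

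Members, lists and tests were chosen with earlier results of these data known. Named genes are the 10, Ghr, up to 4 called genes per pathway list (or the 2 with the smallest p), the most abundant and called markers, and the 2 genes most like each of the 10. Acss2, Fasn, Hsd11b1 and family genes were named after their values were seen. Not all genes the rule gives are named.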

Additional observations from a re-analysis of the deposited data

Results flagged for a closer look

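Of 20 groups of 5 values, 10 genes in 2 genotypes, 2 had a library far from the other 4, where chance gives about 1 in 20 groups. Pparg was at 24.1 FPKM in Ad-GHRKO 1, the lowest of its genotype, while the other 4 Ad-GHRKO libraries were at 58.7 to 65.8 FPKM. The same library had the largest share of skeletal muscle markers (21.5% of the FPKM sum) and the lowest sum of adipocyte markers. Per 1000 FPKM of the adipocyte markers its Pparg was 8.91, within the 8.26 to 10.6 of its genotype. On that scale its Rxra was 19.8, where the other Ad-GHRKO libraries had 5.88 to 7.43. The part of tissue content in the value of Pparg was not tested. Gata2 was at 4.30 FPKM in Ad-GHRKO 3, the highest of its genotype, while the other 4 were at 2.02 to 2.57 FPKM. Ad-GHRKO 3 also had the highest sum of endothelial markers, 398 FPKM. Their part in the value of Gata2 was not tested.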

How the results depend on the processing

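In all 26 alternatives 0 of the 10 factors passed as higher, and 0 as lower in 25 of them. With the skeletal muscle score as covariate 1 passed as lower, Cebpa (-0.65). Gata2 was not among the genes tested with the filter of 5 FPKM. Pparg, Cebpa, Klf15, Klf4, Zfp423 and Ebf1 kept the sign of their log2 change in all settings run. That of Cebpb, at -0.01, turned to 0.11 with TPM rescaling, 0.13 with array weights, 0.31 with the B cell score, 0.025 with voom and 0.28 on the scale of the adipocyte markers, and ranged from -0.21 to 0.30 with 1 library left out. Without the 3 muscle-rich libraries Cebpb was at -0.51 and Cebpd turned to -0.015. On the scale of the adipocyte markers, added after seeing the data, Rxra turned to 0.064, Gata2 to 0.051 and Hdac3 to 0.060. The causes were not tested.

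The counts over all genes, 99 higher and 181 lower, were 36 and 81 with no filter, 237 and 294 with median ratio scaling, 224 and 341 with quantile normalization, 1003 and 692 with array weights, 323 and 520 with the muscle score, 176 and 278 with the endothelial score, 378 and 399 without the 3 libraries with over 1% muscle markers, 362 and 313 without the 4 with over 0.1%, and 381 and 77 on the adipocyte marker scale. TPM rescaling gave 91 lower. With 1 library left out they ran from 41 (without Ad-GHRKO 3) to 778 (without Ad-GHRKO 1) higher and from 75 to 407 lower, and each library but Flox 1 moved at least 1 of the counts by over 1.5 times. The replicate block gave 25 and 60. Same-numbered libraries did not pair: the correlations of their deviations were -0.49, 0.39, -0.03, 0.28 and -0.26, and 1 of 5 Flox libraries was most like its own number. Each of the 10 had at least 200 reads in each library, and the SE of their log2 changes was 0.15 to 0.42.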

Other observations

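Some relatives of the 10 factors had groups that did not overlap without passing the test over all genes. Klf9, a target of glucocorticoid and thyroid hormone receptors, was higher in every Ad-GHRKO library, at 26.8 ± 4.84 FPKM for Flox against 37.4 ± 5.46 FPKM for Ad-GHRKO (SD, n = 5 per group, limma adjusted p = 0.158), a pattern that 1.62% of all genes tested showed. Ppara, the PPAR of fatty acid oxidation, was lower in every Ad-GHRKO library, at 1.54 ± 0.271 FPKM for Flox against 1.08 ± 0.222 FPKM for Ad-GHRKO (SD, n = 5 per group, limma adjusted p = 0.259), as for 3.35% of all genes. Klf6 overlapped, at 24.5 ± 5.89 FPKM for Flox against 52.6 ± 23.1 FPKM for Ad-GHRKO (SD, n = 5 per group, limma adjusted p = 0.102). These 3 were chosen after their values were seen.

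Of 9 pericyte and smooth muscle markers tested, 1 was called lower, beside 1.42% of all genes, and 4 log2 changes were negative and 5 positive. The gene called was Cspg4, found on pericytes and on some adipocyte precursors. It was at 6.87 ± 1.30 FPKM for Flox against 3.09 ± 0.452 FPKM for Ad-GHRKO (SD, n = 5 per group), with a log2 change of -0.94 (limma adjusted p = 0.00811). All its Ad-GHRKO libraries lay below all Flox libraries, as for 3.35% of all genes tested. Acta2, the smooth muscle actin, was at 56.4 ± 17.2 FPKM for Flox against 154 ± 80.5 FPKM for Ad-GHRKO (SD, n = 5 per group), with adjusted p = 0.0629 by limma, and all its Ad-GHRKO libraries lay above all Flox libraries, as for 1.62% of all genes tested.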
